A study of Mus musculus with 4 samples.

Results

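Imprinted genes are expressed mainly from the copy inherited from the mother or from the copy inherited from the father. The copies are told apart by methylation of CpG dinucleotides that is laid down in the germline at imprinting control regions and is copied at every division by DNA methyltransferase 1, the product of *Dnmt1*. In the brain these genes are known for regulating growth, neuronal differentiation and hormonal circuits, and several of them lie in clusters that share a control region. A list of 38 imprinted genes, taken by symbol, was followed among the 56884 genes of a single-nucleus RNA sequencing experiment, and 36 of the 38 reached 10 transcripts over all nuclei. *Peg13*, a noncoding RNA inside *Trappc9*, and *Phlda2*, a growth regulator of the *Kcnq1* cluster, had 0 transcripts in every library, which at 3 counts per library allows up to 0.0174 to 0.0398 CPM (defined in the next paragraph) for counting error only. The question addressed was whether these genes change when *Dnmt1* is deleted in interneurons of the somatostatin (*Sst*) lineage, and whether other cells of the same cortex differ.

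Mouse embryos were taken at E16.5, and nuclei were isolated from their medial cortex. In the Dnmt1 KO animals, *Sst-Cre* recombined loxP-flanked *Dnmt1* alleles in postmitotic cells of the *Sst* lineage and switched on a tdTomato reporter (*Sst-Cre/tdTomato/Dnmt1 loxP2*). In the Control animals, *Sst-Cre* and the reporter were present without the loxP-flanked alleles. Each genotype had 2 libraries, and in each genotype replicate 1 was female and replicate 2 male by the labels, with Control 2 alone in batch 2. The libraries held 96455278 to 201141704 transcripts, and 4905 to 12064 nuclei each were retained with medians of 12274 to 21140 transcripts. Levels are given as CPM, the transcripts of a gene per 1000000 transcripts of the same library and cell class.

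Nuclei were assigned to cell classes by transcripts of class genes. *Lhx6*+/*Gad2*+ interneurons, the class that contains the *Sst* lineage, numbered 262 and 984 in Dnmt1 KO 1 and 2 and 614 and 378 in Control 1 and 2. *Sst*+/*Gad2*+ nuclei numbered 16, 136, 40 and 27, excitatory neurons 1737, 3175, 2161 and 2415, and radial glia 785, 901, 458 and 316 in the same order. Excitatory neurons made up 49.2% of the nuclei of Control 2 and 26.3% to 30.8% of those of the other libraries. The part of the greater depth of Control 2 in this share was not tested. All 8 interneuron genes that the assignment did not use were detected in the interneurons of each library, with a summed level of 22908 to 27982 CPM against 119 to 176 CPM in excitatory neurons. *Dnmt1* itself stood at 59.8 and 49.5 CPM in Dnmt1 KO 1 and 2 and 63.8 and 56.9 CPM in Control 1 and 2 in interneurons, a log2 difference of -0.090 ± 0.14 (SE, n = 2 against 2 libraries; edgeR adjusted p = 0.93), so its level did not separate the genotypes there. In *Sst*+/*Gad2*+ nuclei it stood at 76.1 and 46.1 CPM against 81.2 and 66.5 CPM (log2 difference -0.35 ± 0.33, edgeR adjusted p = 1.00). Counts per gene do not distinguish a transcript that lacks the loxP-flanked exons from an intact one, and the gene table has no entry for Cre or tdTomato, so recombined nuclei were not identified and *Dnmt1* levels cannot check the genotype. By the paper, *Lhx6* is expressed in interneurons of the medial ganglionic eminence, which forms parvalbumin as well as *Sst* interneurons. The *Lhx6*+/*Gad2*+ class may therefore hold nuclei outside the deleted lineage, and their share was not determined.

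Sequences are shown for 4 start sites whose genes recur in the results, because CpG is the dinucleotide that DNA methyltransferase 1 methylates. They were read from GRCm39 before the start of the transcript that GENCODE vM39 names canonical, in the direction of transcription, and stop short of any exon of the gene that reaches into the window from another of its transcripts. The *Grb10* stretch lies in an intron of a longer *Grb10* transcript. In the sequences the CpGs are in capitals, and a CpG reads the same on the opposite strand. *Meg3* starts a maternally expressed run of noncoding RNAs (*Meg3*, *Rian*, *Mirg*), *Kcnq1ot1* is a paternally expressed antisense RNA in *Kcnq1*, and *Grb10* encodes a growth factor receptor adaptor. *Peg10*, a gene derived from a retrotransposon, and *Sgce*, epsilon-sarcoglycan, start close together on opposite strands, and a stretch between them is given on the *Peg10* strand, from the *Sgce* start to the first *Peg10* exon.
Meg3 (chr12:109506629-109506876, + strand): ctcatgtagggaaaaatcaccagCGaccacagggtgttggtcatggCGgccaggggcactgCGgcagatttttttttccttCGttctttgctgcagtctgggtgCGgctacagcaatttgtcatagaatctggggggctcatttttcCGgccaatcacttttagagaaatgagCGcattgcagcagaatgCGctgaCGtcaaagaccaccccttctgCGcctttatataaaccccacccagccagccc
Peg10 and Sgce (chr6:4747208-4747305, + strand): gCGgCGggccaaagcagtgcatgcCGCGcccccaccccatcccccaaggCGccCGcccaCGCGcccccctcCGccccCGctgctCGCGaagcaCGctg
Kcnq1ot1 (chr7:142850328-142850495, - strand): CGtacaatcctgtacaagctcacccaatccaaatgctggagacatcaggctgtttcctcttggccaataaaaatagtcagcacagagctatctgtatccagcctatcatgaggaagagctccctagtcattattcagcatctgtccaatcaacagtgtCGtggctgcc
Grb10 (chr11:11987420-11987669, - strand): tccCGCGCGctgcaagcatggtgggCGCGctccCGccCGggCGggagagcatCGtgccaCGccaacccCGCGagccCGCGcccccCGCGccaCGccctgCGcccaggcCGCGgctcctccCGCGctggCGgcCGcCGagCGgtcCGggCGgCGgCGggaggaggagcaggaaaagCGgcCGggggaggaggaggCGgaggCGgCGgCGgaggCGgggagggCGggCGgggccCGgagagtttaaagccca
The motif CG occurred 10, 13, 2 and 40 times in these 248, 98, 168 and 250 bases. In whole windows of 250 bases before the canonical start it occurred 10 times at *Meg3*, 21 times at *Peg10*, 7 times at *Kcnq1ot1* and 40 times at *Grb10*. Over 54652 protein-coding and lncRNA genes of GENCODE vM39, the median window of that length held 4, and at least as many CpGs as at *Meg3*, *Peg10*, *Kcnq1ot1* and *Grb10* were found in 26.8%, 9.93%, 36.1% and 0.715% of them. Among the windows of the other matched list members the number ran from 0, before *Rian*, *Mirg*, *Ppp1r9a* and *Ndn*, to 32 before *Cdkn1c*. The count is a description of the letters, and methylation was not measured in these nuclei.

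In *Lhx6*+/*Gad2*+ interneurons no imprinted gene with enough transcripts for the test passed it for a difference between genotypes. Of 31 list members with enough transcripts to test, 0 passed (edgeR's quasi-likelihood test on sums per library, Benjamini-Hochberg adjusted p under 0.05 over 13477 genes), against 0% of all genes tested, and the smallest adjusted p of a list member was 0.819. At an unadjusted p under 0.05 stood 3 list members (9.68%) and 734 of all genes (5.45%), and DESeq2 called 0 list members and 2 genes. The log2 differences of the list members ran from -1.06 to 0.80 with a median of 0.037 (from -0.053 to 0.12 with each library left out in turn), and the median over all genes was -0.011. Both Dnmt1 KO libraries lay above both Control libraries for 5 list members (16.1%, against 11.8% of all genes) and below both for 7 (22.6%, against 26.7%), and these shares were near those of all genes. The list members with too few transcripts to test there were *H19*, *Igf2*, *Dlk1*, *Asb4*, *Magel2*, *Phlda2* and *Peg13*. Without the filter on low counts edgeR called 2 list members, *Igf2* and *Airn*, among 155 genes. *Airn*, a noncoding RNA antisense to *Igf2r*, stood at 22.5 and 12.3 CPM in Dnmt1 KO 1 and 2 and 18.8 and 47.5 CPM in Control 1 and 2 with the filter in place, a log2 difference of -0.95 ± 0.49 (SE; edgeR adjusted p = 0.819) with overlap between the genotypes. The median log2 difference was 0.022 over the 18 tested paternally expressed genes and 0.025 over the 11 maternally expressed genes. Within batch 1 alone, without Control 2, the Control is 1 library whose spread is taken from the Dnmt1 KO libraries, and 0 list members passed in interneurons and in each of the other genotype comparisons given below. Of all genes, 3 were called there in interneurons, 6 in *Sst*+/*Gad2*+ nuclei, 1 in the comparison of the genotype difference between interneurons and excitatory neurons, and 0 in the other comparisons.

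The *Dlk1-Meg3* cluster on chromosome 12 (*Meg3* at chr12:109506877-109538165, *Rian* at chr12:109570242-109628150 and *Mirg* at chr12:109696198-109715898, all lncRNA genes on the + strand) is expressed from the maternal copy in its noncoding part and from the paternal copy in *Dlk1*, a Notch-like ligand, and *Rtl1*, a gene of retrotransposon origin. *Meg3* stood at 934 and 1129.7 CPM in Dnmt1 KO 1 and 2 and 837 and 852 CPM in Control 1 and 2. *Rian*, which hosts small nucleolar RNAs, stood at 279 and 303 CPM in Dnmt1 KO 1 and 2 and 247 and 225 CPM in Control 1 and 2. For both genes the Dnmt1 KO libraries were the higher pair without overlap, and the log2 differences were 0.35 ± 0.12 (SE; edgeR unadjusted p = 0.0273, adjusted p = 0.819) for *Meg3* and 0.36 ± 0.10 (edgeR unadjusted p = 0.011, adjusted p = 0.819) for *Rian*. *Mirg*, a host of microRNAs, overlapped between genotypes at 25.8 and 37.6 CPM against 30.3 and 25.3 CPM (log2 difference 0.28 ± 0.20, edgeR adjusted p = 0.83). All 4 tested members of the cluster had positive log2 differences, between 0.28 and 0.36, and 0 passed. *Dlk1* was at or near 0 in interneurons, with 5 transcripts over the 4 libraries (0 and 0.0739 CPM against 0.466 and 0 CPM).

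The *Snrpn* cluster on chromosome 7 holds paternally expressed genes and the maternally expressed *Ube3a*, a ubiquitin ligase whose paternal copy is silenced in neurons by the antisense transcript *Snhg14*. *Snhg14* stood at 923 and 1015 CPM in Dnmt1 KO 1 and 2 and 884 and 899.8 CPM in Control 1 and 2 (0.18 ± 0.10 on the log2 scale, edgeR adjusted p = 0.819), with both Dnmt1 KO libraries above both Control libraries by a small margin. *Ube3a* overlapped between genotypes at 179 and 191 CPM against 171 and 190.2 CPM, and so did *Snrpn*, which encodes a splicing protein, at 137 and 172 CPM against 169 and 124 CPM. *Ndn*, encoding necdin, a regulator of neuronal survival and growth, was low at 4.66 and 7.84 CPM against 4.55 and 3.35 CPM. Its Dnmt1 KO libraries were above the Controls, and its log2 difference of 0.80 ± 0.33 was the most positive of the list (unadjusted p = 0.0527, edgeR adjusted p = 0.819). *Magel2*, a regulator of endosomal protein recycling, had 21 transcripts over the 4 libraries (0.823 and 0.296 CPM against 1.17 and 0.497 CPM) and was not tested.

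Of the genes whose genotypes did not overlap, the remaining ones with the greatest differences were lower in Dnmt1 KO. *Peg10* stood at 1.37 and 1.92 CPM in Dnmt1 KO 1 and 2 and 5.36 and 2.24 CPM in Control 1 and 2, a log2 difference of -1.06 ± 0.52 (edgeR adjusted p = 0.819), where Control 1 was the highest library. *Nap1l5*, a nucleosome assembly protein gene inside *Herc3*, stood at 1.1 and 1.55 CPM against 2.33 and 2.73 CPM (-0.78 ± 0.39; edgeR adjusted p = 0.819). *Cdkn1c*, the cyclin-dependent kinase inhibitor p57, stood at 4.39 and 4.88 CPM against 6.29 and 7.33 CPM (-0.47 ± 0.25; edgeR adjusted p = 0.819). *Plagl1*, a zinc finger transcription factor, stood at 23.6 and 21.3 CPM against 37.8 and 26.3 CPM (-0.46 ± 0.20; unadjusted p = 0.0565, edgeR adjusted p = 0.819), and *Zim1*, a zinc finger gene beside *Peg3*, at 3.29 and 3.7 CPM against 4.66 and 4.97 CPM (-0.38 ± 0.27; edgeR adjusted p = 0.83). The methods of the study state the nucleus filter in reads per cell, and transcripts were used here. With the filter applied to mapped reads, the *Plagl1* and *Zim1* differences turned to 0.073 and 0.057. The *Nap1l5*, *Peg10* and *Zim1* values rest on 67, 95 and 142 transcripts over the 4 libraries. Striatal genes, which mark nuclei from outside the cortex, were highest in the interneurons of Control 1. All 7 of the list summed to 1173 CPM there against 514 to 758 CPM in the other libraries. Control 1 was also the highest library for *Peg10* and *Plagl1*, and Control 2 was the highest for *Nap1l5*, *Cdkn1c* and *Zim1*. The part of striatal nuclei in these differences was not tested.

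Several growth regulators of the list are in clusters of their own. *Kcnq1ot1*, which silences *Cdkn1c* and its neighbours on the paternal copy, stood at 557 and 542 CPM in Dnmt1 KO 1 and 2 and 436 and 504 CPM in Control 1 and 2 (0.29 ± 0.11; unadjusted p = 0.0425, edgeR adjusted p = 0.819), with the Dnmt1 KO pair higher. *Rian*, *Meg3* and *Kcnq1ot1* were the list members with an unadjusted p under 0.05 and are described with their p for that reason, after their values had been seen. *Peg3*, a zinc finger protein gene of growth and behaviour, overlapped at 65.6 and 61.7 CPM against 65.4 and 50.3 CPM, *Grb10* at 33.7 and 29.3 CPM against 35.1 and 22.6 CPM and *Nnat*, the neuronatin gene inside *Blcap*, at 284 and 342 CPM against 313 and 209 CPM. *Igf2*, the insulin-like growth factor, and *H19*, its noncoding neighbour, were too low to test at 0 and 3.55 CPM against 0.233 and 0.124 CPM and 0 and 1.63 CPM against 1.05 and 0.745 CPM. The plot of interneuron levels shows all 4 libraries side by side for a set of imprinted genes that leaves out *Igf2* and *H19*.

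**Figure D1:**
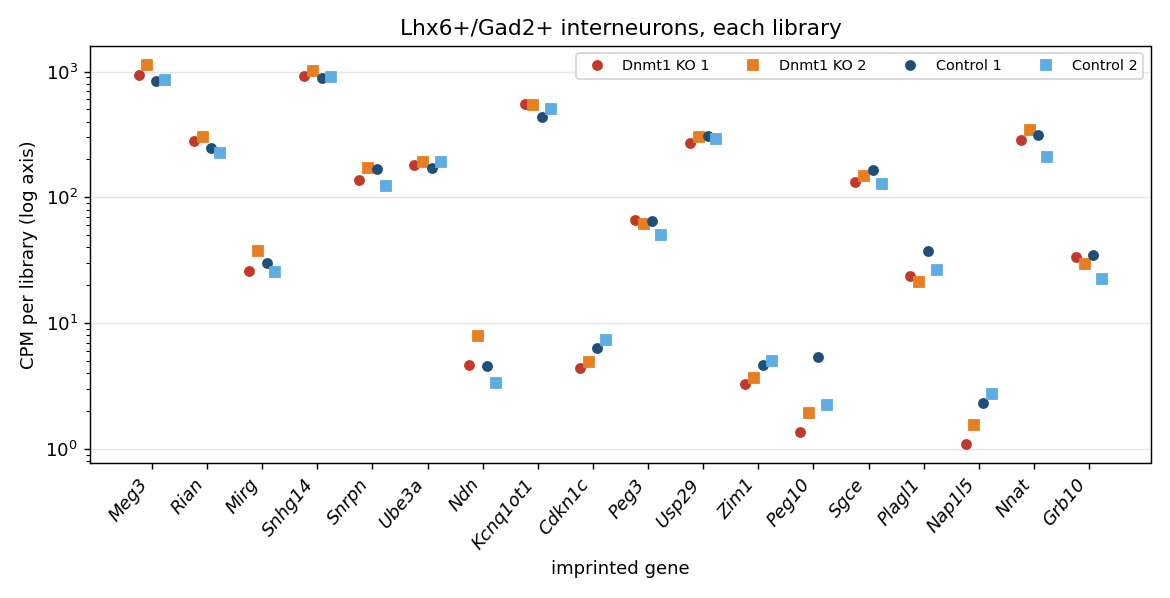
Levels of 18 imprinted genes in *Lhx6*+/*Gad2*+ interneurons, as CPM on a log axis, with 1 point for each of the 4 libraries. The 2 Dnmt1 KO points (red and orange) lie above both Control points (blue) for *Meg3*, at 934 and 1129.7 against 837 and 852 CPM, and also for *Rian*, *Snhg14*, *Ndn* and *Kcnq1ot1*. They lie below both for *Peg10*, *Nap1l5*, *Plagl1*, *Cdkn1c* and *Zim1*, and the genotypes overlap for *Mirg*, *Snrpn*, *Ube3a*, *Peg3*, *Usp29*, *Sgce*, *Nnat* and *Grb10*.

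In *Sst*+/*Gad2*+ nuclei, the nuclei nearest to the deleted lineage, 24 list members were testable and 0 passed (background 0% of 7217 genes). At an unadjusted p under 0.05 stood 0 list members and 211 genes, and DESeq2 called 0 genes. Both Dnmt1 KO libraries were higher for 6 list members (25%, against 12.3% of all genes) and lower for 4 (16.7%, against 21.2%). *Rian* stood at 410.2 and 509 CPM in Dnmt1 KO 1 and 2 and 395 and 238 CPM in Control 1 and 2 (0.60 ± 0.30; edgeR adjusted p = 1.00), with Dnmt1 KO 1 close to Control 1. *Mirg* stood at 63.4 and 57.7 CPM against 49.7 and 30.3 CPM (0.61 ± 0.33; edgeR adjusted p = 1.00), and its difference was -0.12 when nuclei were assigned at a common depth. *Mest*, a hydrolase-like gene of mesoderm, stood at 4.23 and 27.4 CPM against 42.4 and 39.0 CPM (-0.84 ± 0.50; edgeR adjusted p = 1.00). Dnmt1 KO 1 had 16 such nuclei, and its *Mest* level came from 1 transcript.

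Excitatory neurons lie outside the *Sst* lineage and gave more nuclei. Of 34 testable list members 0 passed (background 0% of 17736 genes), 1 of them and 1110 of all genes stood at an unadjusted p under 0.05, and DESeq2 called 0 list members and 55 genes. Both Dnmt1 KO libraries were above both Controls for 10 list members (29.4%, against 15.1% of all genes) and below for 2 (5.88%, against 23.8%). The median log2 difference of the list was 0.16, against -0.0020 for all genes. *Ndn* stood at 6.8 and 6.86 CPM in Dnmt1 KO 1 and 2 and 4.21 and 4.14 CPM in Control 1 and 2, a log2 difference of 0.74 ± 0.14 with little spread within either genotype (unadjusted p = 0.00318, edgeR adjusted p = 0.768). It passed at an adjusted p of 0.0408 in edgeR without the filter on low counts. That setting called 3 list members, *Ndn*, *Igf2* and *Nnat*, among 540 of 32815 genes. *Peg10* was again lower in Dnmt1 KO, at 0.787 and 1.07 CPM against 2.09 and 1.36 CPM (-0.83 ± 0.34; edgeR adjusted p = 0.768). *Grb10* stood at 22.2 and 23.3 CPM against 21.2 and 13.2 CPM (0.44 ± 0.23; edgeR adjusted p = 0.768), where Control 2 was the low library.

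*Rian* was higher in both Dnmt1 KO libraries of excitatory neurons as well, at 235 and 312 CPM against 213 and 215 CPM (0.38 ± 0.16; edgeR unadjusted p = 0.0549, adjusted p = 0.768). *Meg3* stood at 472 and 696 CPM against 475 and 482 CPM, with Dnmt1 KO 2 alone above the rest. *Mirg* stood at 23.9 and 34.5 CPM against 26.8 and 24.6 CPM. In the *Snrpn* cluster, *Snhg14* stood at 706 and 972 CPM against 771 and 761 CPM, *Snrpn* at 94.8 and 119 CPM against 99.8 and 72.6 CPM and *Ube3a* at 177 and 167 CPM against 168 and 176 CPM. *Kcnq1ot1* stood at 591 and 517 CPM against 483 and 492 CPM (0.21 ± 0.11; edgeR adjusted p = 0.768) with the Dnmt1 KO pair higher, and *Cdkn1c* at 4.22 and 5.01 CPM against 4.11 and 6.44 CPM. *Plagl1* was higher in both Dnmt1 KO libraries here, at 55.3 and 60.7 CPM against 53.7 and 48.1 CPM (0.22 ± 0.11; edgeR adjusted p = 0.768), the opposite order to interneurons. The Dnmt1 KO excitatory neurons also differed in their markers, with the 6 excitatory markers summing to 2159 and 2612 CPM in Dnmt1 KO against 3136 and 3656 CPM in Control, and the part of this shift in the list was not tested.

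Whether the genotype difference itself differed between interneurons and excitatory neurons was tested within libraries. Of 34 list members 0 passed (edgeR interaction, background 0% of 16714 genes), 1 stood at an unadjusted p under 0.05 beside 483 of all genes, and DESeq2 called 0 genes. That list member was *Plagl1*, whose log2 difference between genotypes in interneurons minus that in excitatory neurons was -0.68 ± 0.17 (SE; unadjusted p = 0.00596, edgeR adjusted p = 1). The next smallest p-values belonged to *Mest* (-0.41 ± 0.17; unadjusted p = 0.0516), which turned to 0.051 with the filter on mapped reads, and *Snrpn* (-0.20 ± 0.10; unadjusted p = 0.092; edgeR adjusted p = 1 for both). The median of this double difference was -0.10 over the list and -0.017 over all genes, and that of the list was -0.018 without Control 1, -0.22 without Dnmt1 KO 2 and -0.0022 with the filter on mapped reads. Without the filter on low counts edgeR called 2 list members, *Plagl1* and *Airn*, among 167 genes. With 2 libraries per genotype and that filter in place, no list member was shown to respond differently in interneurons and excitatory neurons.

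**Figure D2:**
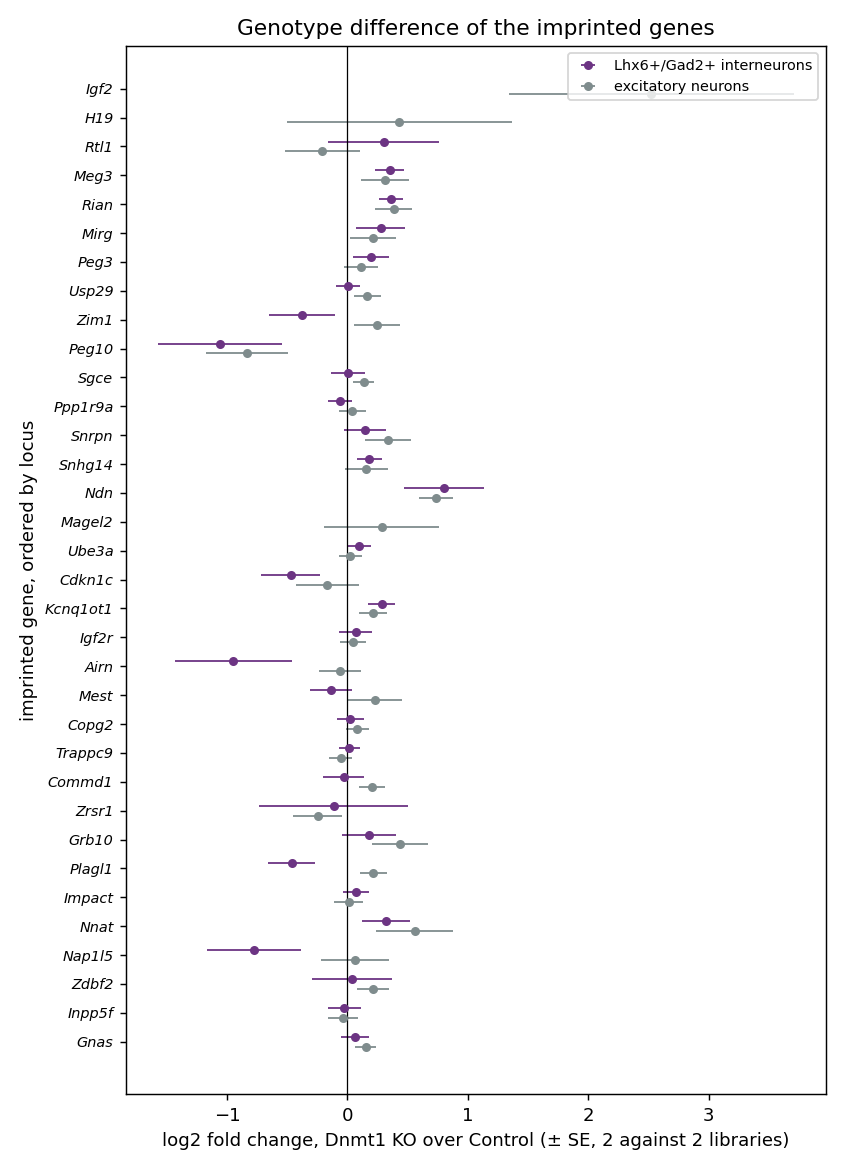
Genotype difference of each testable imprinted gene as log2 fold change of Dnmt1 KO over Control with its standard error, in *Lhx6*+/*Gad2*+ interneurons (purple) and excitatory neurons (grey). Most values lie within 0.5 of 0, *Peg10* is negative in both classes (-1.06 and -0.83), *Ndn* is positive in both (0.80 and 0.74), *Plagl1* has opposite signs, and *Igf2*, tested in excitatory neurons only, has the widest error.

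Radial glia, the dividing stem cells of the cortex, were compared in the same way. Of 31 testable list members 0 passed (background 0% of 14031 genes), 4 (12.9%) stood at an unadjusted p under 0.05 beside 1030 (7.34%) of all genes, and DESeq2 called 0 list members and 56 genes. Both Dnmt1 KO libraries were higher for 5 list members (16.1%, against 14.8%) and lower for 6 (19.4%, against 25.4%). *H19* stood at 0.758 and 2.92 CPM in Dnmt1 KO 1 and 2 and 7.06 and 5.14 CPM in Control 1 and 2 (-1.65 ± 0.62; unadjusted p = 0.0408, edgeR adjusted p = 0.668), lower in both Dnmt1 KO libraries. *Zim1* and *Usp29*, neighbours of *Peg3*, were higher in both, at 2.06 and 1.79 CPM against 0.689 and 1.06 CPM (1.17 ± 0.46; edgeR adjusted p = 0.668) and 75.6 and 92.3 CPM against 56.0 and 67.1 CPM (0.49 ± 0.16; edgeR adjusted p = 0.668). *Peg3* itself stood at 61.4 and 65.5 CPM against 55.8 and 49.2 CPM (0.32 ± 0.13), so that all 3 genes of this cluster had the same sign. *Zim1* had 48 transcripts in these nuclei. *Kcnq1ot1* was higher in both Dnmt1 KO libraries in this class as well, at 602 and 572 CPM against 438 and 525 CPM (0.33 ± 0.12; unadjusted p = 0.0394, edgeR adjusted p = 0.668).

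In intermediate progenitors 0 of 30 list members passed (background 0% of 14033 genes), with 3 of them and 973 of all genes at an unadjusted p under 0.05, and DESeq2 called 0 list members and 53 genes. Both Dnmt1 KO libraries were higher for 6 list members (20%, against 14.8%) and lower for 2 (6.67%, against 24.9%). *Kcnq1ot1* stood at 903 and 677 CPM in Dnmt1 KO 1 and 2 and 592 and 588 CPM in Control 1 and 2 (0.46 ± 0.17; unadjusted p = 0.0384, edgeR adjusted p = 0.716), so that it was higher in both Dnmt1 KO libraries of all 4 neural classes compared. These classes come from the same libraries, and the share of all genes that keep such an order in all of them was not counted. In Cajal-Retzius neurons, which were not tested, *Kcnq1ot1* overlapped between genotypes at 872 and 815 CPM against 609 and 870 CPM. Over the alternatives the *Kcnq1ot1* difference in intermediate progenitors ran from 0.22 to 0.67. Without the filter on low counts edgeR called 3 list members there, *Meg3*, *Igf2* and *Kcnq1ot1*, among 462 genes. Of the other list members at an unadjusted p under 0.05, *Zdbf2* had a difference of 0.42 ± 0.14 and *Grb10* of 0.35 ± 0.13. *Peg10* stood at 1.37 and 1.62 CPM against 3.19 and 2.31 CPM (-0.82 ± 0.38; edgeR adjusted p = 0.736), lower in Dnmt1 KO as in interneurons and excitatory neurons. *Zim1* stood at 2.49 and 2.13 CPM against 1.99 and 1.45 CPM (0.47 ± 0.38), and its difference was -0.20 when 1 more transcript of each class gene was required.

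Over all retained nuclei, 0 of 36 list members passed (background 0% of 21516 genes), and 4 stood at an unadjusted p under 0.05 beside 1612 of all genes. Both Dnmt1 KO libraries were higher for 9 list members (25%, against 19.3%) and lower for 2 (5.56%, against 20.7%). DESeq2 called 205 genes, of which 1 was a list member, *Grb10* (adjusted p = 0.035). *Grb10* stood at 151 and 128 CPM in Dnmt1 KO 1 and 2 and 95.8 and 71.5 CPM in Control 1 and 2 (0.72 ± 0.17; edgeR adjusted p = 0.649), higher in both Dnmt1 KO libraries. Radial glia, where *Grb10* was high, made up 13.9% and 7.47% of the Dnmt1 KO nuclei and 6.5% and 6.44% of the Control nuclei, and within radial glia the gene overlapped between genotypes at 496 and 385 CPM against 432 and 435 CPM. Radial glia held 40.3% and 18.5% of the *Grb10* transcripts of Dnmt1 KO 1 and 2 and 26.1% and 30.5% of those of Control 1 and 2. Meningeal fibroblasts held 15.2% in Dnmt1 KO 2 and at most 0.608% in the other libraries, and the part of either class in the difference was not tested. The sum over all nuclei does not by itself tell a change in the number of cells of a type from a change in RNA per cell. *Igf2* stood at 2.16 and 10.3 CPM in Dnmt1 KO 1 and 2 and 1.29 and 1.73 CPM in Control 1 and 2 (2.04 ± 0.76; edgeR adjusted p = 0.649) and *Dlk1* at 0.876 and 0.677 CPM against 0.618 and 0.302 CPM (0.74 ± 0.42; edgeR adjusted p = 0.676). Without Dnmt1 KO 1, the *Igf2* difference was 2.76 and passed in edgeR (adjusted p = 0.0177), with Dnmt1 KO 2 then the lone library of its genotype.

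A separate list of 21 genes covers factors that establish, keep, read or remove methylation at imprinted loci. In interneurons 7 of the 18 tested were higher and 11 lower in Dnmt1 KO, and 0 passed, with a median log2 difference of -0.088. Of all genes tested there, 48.1% were higher and the median was -0.011. An unadjusted p under 0.05 was reached by 2 of these 18 genes and by 5.45% of all genes. *Uhrf1*, which brings DNA methyltransferase 1 to replicating DNA, stood at 1.37 and 1.77 CPM in Dnmt1 KO 1 and 2 and 5.36 and 3.6 CPM in Control 1 and 2, a log2 difference of -1.38 ± 0.38 (unadjusted p = 0.0104, edgeR adjusted p = 0.819). The *Uhrf1* level in Dnmt1 KO 1 lay near the 0.823 CPM that 3 counts give there. *Trim28*, a corepressor at methylated imprints, stood at 13.7 and 10.7 CPM in Dnmt1 KO 1 and 2 and 18.4 and 21.0 CPM in Control 1 and 2, a log2 difference of -0.66 ± 0.19 (unadjusted p = 0.0124, edgeR adjusted p = 0.819). In radial glia 0 of 18 passed, with 2 at an unadjusted p under 0.05 beside 7.34% of all genes, and *Uhrf1* stood at 42.6 and 38.8 CPM in Dnmt1 KO 1 and 2 and 68.2 and 58.1 CPM in Control 1 and 2, a difference of -0.59 ± 0.14 (unadjusted p = 0.00700, edgeR adjusted p = 0.668). Over the other genotype comparisons 0 of these genes passed, and *Tet1*, an enzyme that oxidises methylated cytosine on the way to its removal, in *Sst*+/*Gad2*+ nuclei (0.75 ± 0.29) and *Smchd1* in intermediate progenitors (0.30 ± 0.10) were the genes at an unadjusted p under 0.05, besides *Arid4a* in radial glia (0.27 ± 0.10). In the comparison of the genotype difference between interneurons and excitatory neurons, *Uhrf1* had -1.25 ± 0.42 (edgeR unadjusted p = 0.0231, adjusted p = 1).

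Between cell classes 42.4% to 81.8% of the tested list members were called, against 34.1% to 71.3% of all genes tested. Numbers of calls are not comparable with those for genotype, which set 2 libraries against 2 and called 0% of all genes. The next paragraphs compare classes within libraries, with both genotypes together (edgeR with library as a block, n = 4 libraries). Pooled over libraries, the highest level of the 36 detected list members was found in mural nuclei for 10, in meningeal fibroblasts for 8 and in Cajal-Retzius neurons for 5. It was found in excitatory neurons for 1 gene, *Usp29*, and in *Lhx6*+/*Gad2*+ interneurons for none. How the highest levels of all genes divide over the classes was not counted, so these numbers describe the list without a background. The rarer classes rest on few nuclei, with 38, 84, 33 and 19 mural nuclei and 0, 161, 0 and 4 meningeal fibroblasts in Dnmt1 KO 1 and 2 and Control 1 and 2. The level map over 12 classes gives these pooled values.

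**Figure D3:**
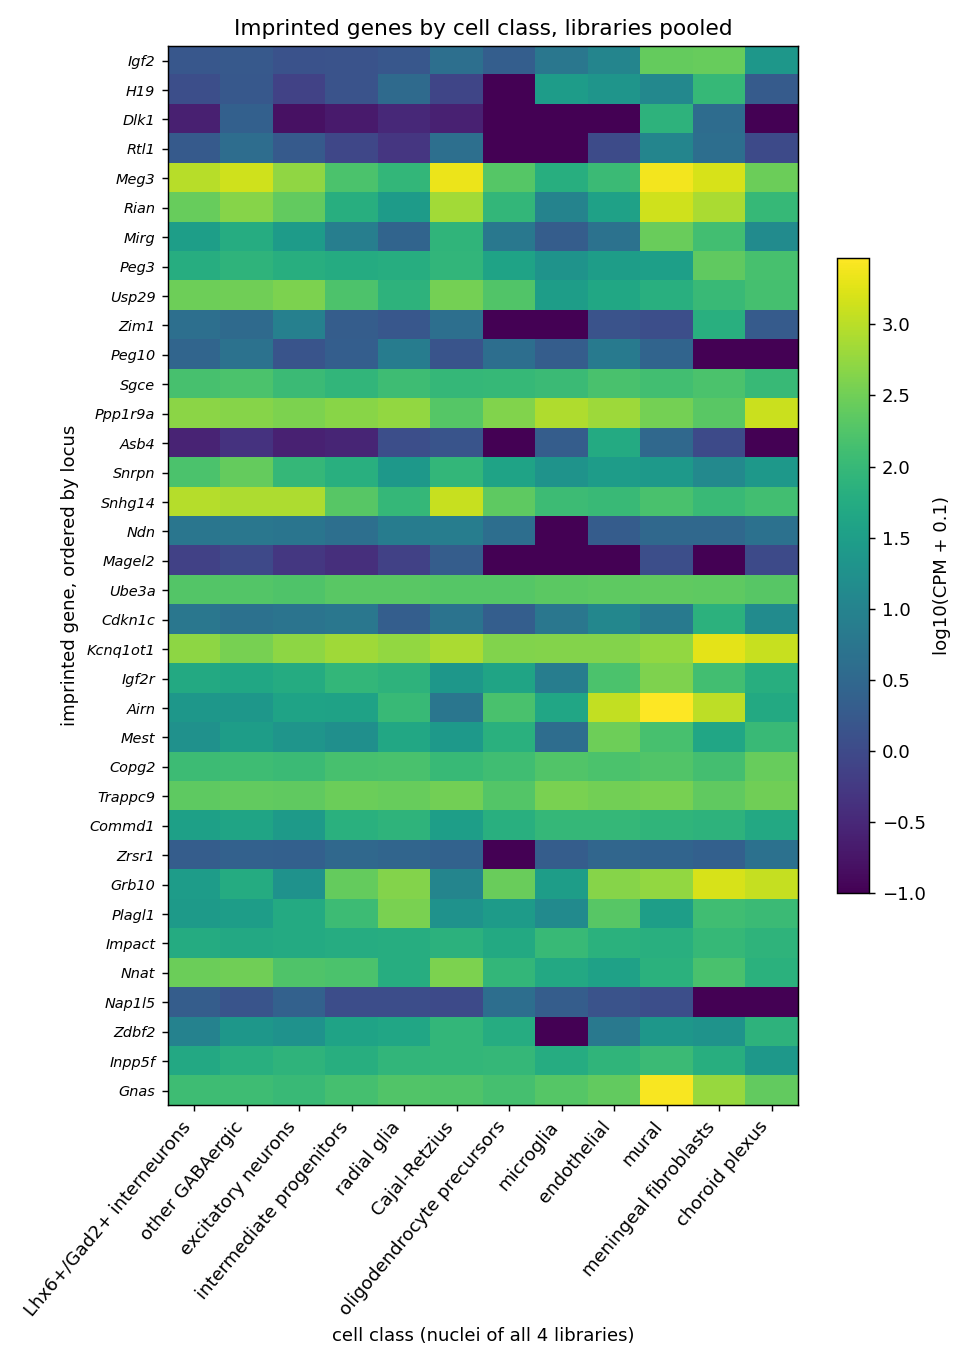
Pooled level of each of the 36 detected imprinted genes in 12 cell classes, as log10(CPM + 0.1), genes in rows ordered by locus and classes in columns. *Meg3*, *Rian* and *Mirg* are high in neurons, mural nuclei and fibroblasts and low in radial glia, *Grb10* shows the reverse between neurons and radial glia (19.2 and 436 CPM), and *Igf2* and *Airn* are high in mural nuclei and fibroblasts.

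Interneurons and excitatory neurons differed in 14 of 33 list members (34.1% of all genes tested were called). Of the 14, 6 were lower in interneurons (17.6% of all genes were called lower) and the others higher. *Meg3* was 1.72-fold higher in interneurons (log2 0.78 ± 0.063, edgeR adjusted p = 7.94e-05), at 837 to 1129.7 CPM against 472 to 696 CPM, and the ranges over the libraries did not overlap. *Rian* and *Mirg* of the same transcribed run did not pass (0.070 ± 0.061 and 0.065 ± 0.055). The number of *Rian* transcripts per *Meg3* transcript was 0.264 to 0.298 in interneurons and 0.447 to 0.499 in excitatory neurons over the 4 libraries, again without overlap.

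Other genes higher in interneurons were *Nnat* (1.6-fold; 0.68 ± 0.088, edgeR adjusted p = 0.000921), *Snrpn* (1.52-fold; 0.60 ± 0.056, edgeR adjusted p = 0.000173), *Grb10* (1.46-fold; 0.55 ± 0.084, edgeR adjusted p = 0.00213) and *Peg10* (1.9-fold; 0.93 ± 0.21, edgeR adjusted p = 0.0118). All 3 tested genes of the *Peg10* cluster rose, with *Sgce* and *Ppp1r9a*, which encodes the synaptic scaffold neurabin, besides *Peg10*. The *Grb10* call was lost at a log2 difference of 0.092 when nuclei were assigned at a common depth, and the *Peg10* call without Control 1 (adjusted p = 0.0901 in edgeR) and in the Control libraries alone (adjusted p = 0.0662). Lower in interneurons were *Zdbf2*, a zinc finger gene (2.17-fold lower; -1.12 ± 0.12, edgeR adjusted p = 0.000289), *Zim1* (2.12-fold; -1.09 ± 0.15), *Plagl1* (2.09-fold; -1.07 ± 0.15), *Inpp5f*, an inositol phosphatase (1.67-fold; -0.74 ± 0.087), and *Usp29* (1.36-fold; -0.45 ± 0.073). The adjusted p of these last 4 lay between 0.000551 and 0.00285 in edgeR.

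Radial glia and excitatory neurons differed in 27 of 33 list members, 9 of them higher in radial glia (35.5% of all genes tested were called higher) and 18 lower (35.8% called lower). The test centres the typical gene at 0, whereas the median gene had a CPM that was higher in radial glia by 0.47 on the log2 scale. On the CPM scale 15 of the 27 were higher and 12 lower, and *Sgce*, *Impact*, *Ube3a*, *Inpp5f*, *Trappc9* and *Kcnq1ot1* changed direction with the scale. Apart from *Ube3a* and *Igf2r*, which were higher in radial glia on the CPM scale, the genes named in the next paragraphs on radial glia had the same direction on both scales.

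The noncoding RNAs *Meg3*, *Rian*, *Mirg* and *Snhg14* were far lower in radial glia. *Meg3* stood at 24.8 to 137 CPM in radial glia and 472 to 696 CPM in excitatory neurons (10.3-fold lower; -3.36 ± 0.34, edgeR adjusted p = 0.000161). *Rian* (14.5-fold lower; -3.85 ± 0.26, edgeR adjusted p = 2.62e-05) and *Mirg* (15.5-fold lower; -3.96 ± 0.20, edgeR adjusted p = 8.6e-06) moved with it. *Rtl1* was called lower too, at 0.172 to 0.755 CPM in radial glia against 1.14 to 1.94 CPM in excitatory neurons. Its radial glia level lay near what 3 counts per library give there (0.283 to 0.531 CPM). It entered the test only through the excitatory neurons where it is high, so no fold is given for it. *Snhg14* stood at 61.3 to 157 CPM against 706 to 972 CPM (14.1-fold lower; -3.81 ± 0.19, edgeR adjusted p = 8.2e-06). *Ube3a*, which *Snhg14* overlaps on the opposite strand, stood at 193 to 222 CPM against 167 to 177 CPM. The number of *Snhg14* transcripts per *Ube3a* transcript, pooled over libraries, was 0.449 in radial glia, 0.971 in intermediate progenitors, 4.74 in excitatory neurons, 5.12 in *Lhx6*+/*Gad2*+ interneurons and 6.31 in Cajal-Retzius neurons. *Zim1* was 8.55-fold lower in radial glia (-3.10 ± 0.20, edgeR adjusted p = 1.99e-05).

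Within radial glia *Snhg14* and *Meg3* were highest in Dnmt1 KO 2, where *Snhg14* stood at 157 CPM against 61.3 to 66.8 CPM elsewhere and *Meg3* at 137 CPM against 24.8 to 89.6 CPM. The 6 excitatory markers summed to 318 CPM in the radial glia of that library and to 224 to 244 CPM in those of the others, and their part in these levels was not tested.

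Of the list members called higher in radial glia, *Grb10* had the greatest difference. It stood at 385 to 496 CPM against 13.2 to 23.3 CPM in excitatory neurons (15.8-fold; 3.98 ± 0.16, edgeR adjusted p = 3.81e-06). *Plagl1* stood at 267 to 464 CPM against 48.1 to 60.7 CPM (5.01-fold; 2.32 ± 0.18, edgeR adjusted p = 4.52e-05). Smaller in level were *Peg10*, at 4.33 to 16.1 CPM against 0.787 to 2.09 CPM (2.07 ± 0.33, edgeR adjusted p = 0.00144), and *H19*, at 0.758 to 7.06 CPM against 0.107 to 1.2 CPM (2.19 ± 0.46, edgeR adjusted p = 0.00516). *Commd1*, a copper-handling protein gene, was 2.09-fold higher (1.07 ± 0.077, edgeR adjusted p = 3.31e-05). Intermediate progenitors, which lie between radial glia and neurons in the lineage, had intermediate pooled levels of *Grb10* (256 CPM), *Plagl1* (113 CPM), *Meg3* (157 CPM) and *Snhg14* (201 CPM). *Cdkn1c* was lower in radial glia than in excitatory neurons (-1.82 ± 0.29, edgeR adjusted p = 0.00151), at 2.05 and 5.2 CPM pooled, and had 5.87 CPM in intermediate progenitors, which were not tested against them. *Peg3* was called lower in radial glia too (-0.66 ± 0.097, edgeR adjusted p = 0.000913). Its CPM overlapped, at 49.2 to 65.5 CPM in radial glia and 58.7 to 75.8 CPM in excitatory neurons. In Dnmt1 KO 2 its CPM was higher in radial glia, at 65.5 against 58.7 CPM. *Igf2r* did not pass (-0.041 ± 0.067).

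**Figure D4:**
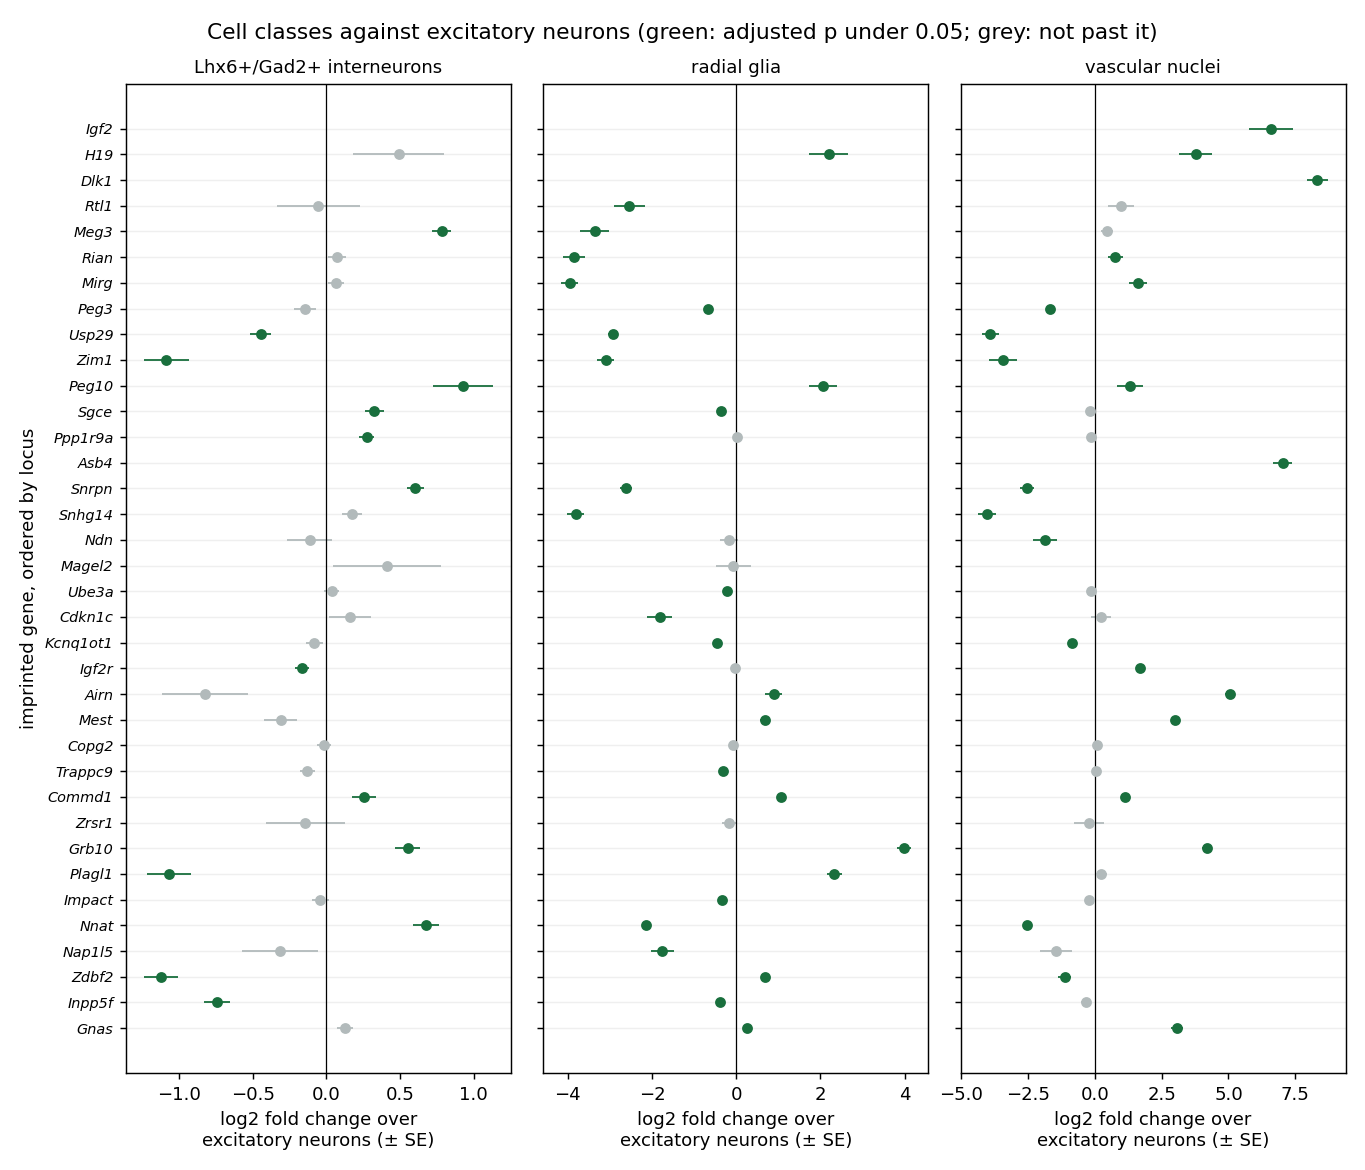
Log2 fold change of each testable imprinted gene over excitatory neurons with its standard error, in *Lhx6*+/*Gad2*+ interneurons, radial glia and vascular nuclei (n = 4 libraries each; the 3 horizontal axes differ in range). Green points have an adjusted p under 0.05. Interneurons stay between -1.12 and 0.93, radial glia between -3.96 (*Mirg*) and 3.98 (*Grb10*), and in vascular nuclei *Igf2* is at 6.59. The vascular points of *Dlk1* and *Asb4* rest on near 0 transcripts in excitatory neurons, and that of *Zim1* on near 0 transcripts in vascular nuclei.

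Vascular nuclei, the sum of the endothelial and mural nuclei, differed from excitatory neurons in 22 of 35 list members, 13 of them higher (24.1% of all genes tested were called higher) and 9 lower (30.3% called lower). The median gene of this comparison was at -0.23 in the test and at 0.22 on the CPM scale, with no called list member changing direction between them. *Igf2*, a fetal growth factor, stood at 56.9 to 195 CPM in vascular nuclei against 0.179 to 3.56 CPM in excitatory neurons (6.59 ± 0.81 on the log2 scale, edgeR adjusted p = 0.000159). *Airn*, the noncoding RNA that silences *Igf2r* on the paternal copy, stood at 1637 to 2199.8 CPM against 33.8 to 45.6 CPM (32.9-fold; 5.04 ± 0.17, edgeR adjusted p = 1.46e-07). *Grb10* was at 439 to 615 CPM in vascular nuclei (18.3-fold; 4.19 ± 0.20, edgeR adjusted p = 7.14e-07). Apart from *Zim1*, the lowest of the called list members were *Snhg14* (-4.03 ± 0.34), *Usp29* (-3.91 ± 0.32), *Snrpn* (-2.54 ± 0.26) and *Nnat* (-2.52 ± 0.18), at edgeR adjusted p from 6.48e-06 to 5.59e-05. *Zim1* was called lower too, at 0 to 2.53 CPM in vascular nuclei against 7.73 to 11.2 CPM in excitatory neurons. Its vascular level lay near what 3 counts per library give there (1.04 to 4.88 CPM), so no fold is given for it. *Mirg* (1.62 ± 0.34, edgeR adjusted p = 0.00381) and *Rian* (0.77 ± 0.27, edgeR adjusted p = 0.0378) were higher in the summed vascular nuclei, and *Meg3* (0.47 ± 0.23) did not pass. Pooled over libraries, *Rian* stood at 1416 CPM in mural and 36.6 CPM in endothelial nuclei against 246 CPM in excitatory neurons. *Mirg* stood at 276 and 4.73 CPM against 27.9 CPM. For both genes the mural nuclei thus lay above excitatory neurons and the endothelial nuclei below them. *Dlk1* stood at 22.5 to 56.9 CPM in vascular nuclei against 0.0312 to 0.0922 CPM in excitatory neurons, and *Asb4*, a ubiquitin ligase subunit of the *Peg10* cluster, at 22.8 to 39.5 CPM against 0.107 to 0.238 CPM. With 11 and 28 transcripts in all excitatory neurons, both entered the test only through the vascular nuclei where they are high, so no fold is given for them although they are among the 13 called higher.

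Endothelial and mural nuclei shared some of these genes and differed in others, which is given as a description because the groups were small. *Grb10* was high in both, at 418 to 569 CPM in endothelial and 466 to 736 CPM in mural nuclei. *Dlk1* stood at 56.8 to 113 CPM in the mural nuclei of the 4 libraries and had 0 transcripts in endothelial nuclei, which at 3 counts per library allows up to 1.59 to 9.86 CPM there for counting error only. *Igf2* stood at 129 to 451 CPM in mural and 0 to 16.4 CPM in endothelial nuclei, and the ranges did not overlap. *Asb4* showed the reverse, with 32.9 to 72.3 CPM in endothelial and 0 to 8.97 CPM in mural nuclei. *Meg3* reached 2002 to 3564 CPM in mural nuclei, above interneurons in every library, and 46.1 to 144 CPM in endothelial nuclei. *Gnas*, the stimulatory G protein locus, stood at 2171 to 4202 CPM in mural and 198 to 274 CPM in endothelial nuclei. *Airn* and *Igf2r*, which overlap on opposite strands, were both high in mural nuclei at 2640.5 to 3624 CPM and 353 to 535 CPM, and *Airn* stood at 940.0 to 1295 CPM in endothelial nuclei. The number of *Airn* transcripts per *Igf2r* transcript was 7.25 in mural nuclei, 7.12 in endothelial nuclei, 8.27 in fibroblasts, 1.3 in radial glia and 0.686 in excitatory neurons.

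*Igf2* levels in neural classes followed the library. In Dnmt1 KO 2 the gene stood at 3.55 CPM in interneurons, 3.56 CPM in excitatory neurons, 4.36 CPM in intermediate progenitors and 3.49 CPM in radial glia, which is nearly the same in classes that otherwise differ. In the other libraries it lay between 0 and 1.21 CPM in those classes. Dnmt1 KO 2 held 161 meningeal fibroblasts, with *Igf2* at 260.2 CPM and in 78.3% of them, against 5.54% of its excitatory neurons (median depths 11447 and 15421 transcripts). The 7 fibroblast markers summed to 2.51 CPM in its interneurons, against 0.583 to 1.65 CPM in those of the other libraries, and to 3.3 against 0.286 to 1.38 CPM in excitatory neurons. The sums were 4.36 against 0.249 to 0.664 CPM in intermediate progenitors and 12.5 against 1.72 to 3.47 CPM in radial glia. At most 1 of the 7 markers was at 0 in these classes of Dnmt1 KO 2, and 1 to 5 were at 0 in those of the other libraries. In excitatory neurons the log2 difference of *Igf2* was 2.52 ± 1.18 (edgeR adjusted p = 0.768), and Dnmt1 KO 1, at 0.179 CPM, lay below both Controls. Mural nuclei and fibroblasts together held 73.6% and 43.3% of the *Igf2* transcripts of Dnmt1 KO 1 and 2 and 33.3% and 69.7% of those of Control 1 and 2. The part of fibroblast RNA in the neural levels was not tested.

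**Figure D5:**
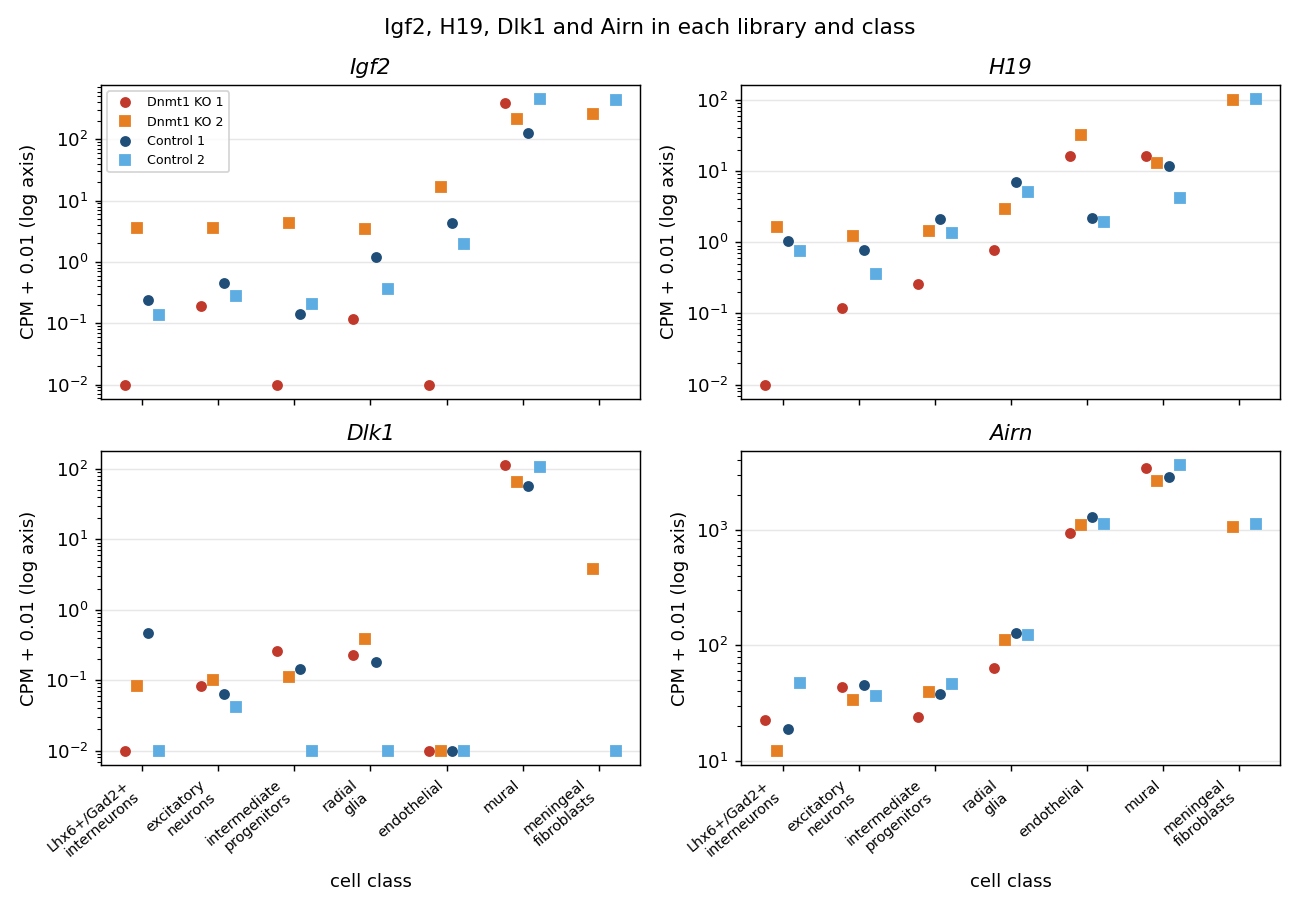
*Igf2*, *H19*, *Dlk1* and *Airn* in 7 cell classes, as CPM + 0.01 on a log axis, with 1 point per library (points at 0.01 are libraries with 0 transcripts, and Dnmt1 KO 1 and Control 1 had no fibroblasts). *Igf2* of Dnmt1 KO 2 (orange squares) is level across the 4 neural classes, at 3.49 to 4.36 CPM, and all libraries reach over 100 CPM in mural nuclei. *Airn* is highest in mural nuclei of every library.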

How the data were processed

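Evercode single-nucleus libraries were made from medial cortex of 2 Dnmt1 KO and 2 Control embryos. The authors mapped the reads to GRCm39 with Trailmaker and deposited counts of transcripts per gene and nucleus, unnormalised, for every barcode. Annotation release, strand and the use of intronic reads in that counting are not given in the sources used here, so overlapping pairs (*Airn* and *Igf2r*, *Snhg14* and *Ube3a*, *Kcnq1ot1* and *Kcnq1*, *Rian* and *Rtl1*, *Mest* and *Copg2*, *Nap1l5* and *Herc3*, *Nnat* and *Blcap*, *Peg13* and *Trappc9*) may share reads, and counts do not resolve the parental copy. Per the labels, R 4.4.1 and Seurat 5.0.1.9001 were used downstream.

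Here, a barcode was kept if it held 1500 to 60000 transcripts, of which up to 10% were mitochondrial, and no barcode was shared between libraries. The study's methods set these bounds on reads, so mapped reads were an alternative. The upper bound fell unevenly on the genotypes. Barcodes discarded for exceeding it made up 1.35% (Dnmt1 KO 1), 4.37% (Dnmt1 KO 2), 19.2% (Control 1) and 29.4% (Control 2) of each library's total count. The part of this uneven loss in the genotype differences was not tested on its own. Nuclei were put into classes by the presence and absence of gate genes (*Lhx6* and *Gad2* for interneurons), those that met several gates were left out, and no doublet caller was run. Deposited counts were summed per library and class, since nuclei are not replicates, and tested with edgeR 4.0.16 (limma 3.58.1, R 4.3.3) quasi-likelihood fits with TMM factors, filterByExpr and Benjamini-Hochberg adjustment over all genes tested at 0.05. Fold changes are log2 values, and the SE is the log2 fold change divided by the root of F. The interaction was fitted over interneurons and excitatory neurons with library as a block. P-values measure the spread between 2 libraries per genotype, and batch 2 cannot be told apart from Control 2, nor sex from replicate number. DESeq2 1.42.0, other filters, other gates, replicate number or batch as a term and each library left out were the alternatives. Scripts ran in Python 3.11.15 (numpy 2.4.6, pandas 2.3.3, scipy 1.17.1, matplotlib 3.10.9) and were tested on simulated data.

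The imprinted genes and all lists were chosen with earlier results of these data known. Genes given fold changes were those whose genotypes did not overlap, up to 6 in interneurons and 3 in other classes by absolute log2 fold change, the 3 smallest p in the interaction, and up to 5 called per direction between classes. Further genes had levels given by a fixed list, and any other gene was chosen after its values were seen (*Sgce*, *Ppp1r9a*, *Rtl1*, *Gnas*, *Igf2r* and *Zdbf2*, and genes outside the rule in a comparison). Promoter windows were read from GRCm39 at GENCODE vM39 starts, in which 37 of 38 list members were matched, *Zrsr1* being the other. Nuclear RNA biases levels towards unspliced transcripts, and levels are not corrected for gene length, so ratios of 2 genes are compared between classes only.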

Additional observations from a re-analysis of the deposited data

Results flagged for a closer look

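Genotype differences of opposite order in different classes were found for 3 imprinted genes, where both Dnmt1 KO libraries lay above both Controls in 1 class and below both in another. Over all genes tested in both classes, such an order was found for 1.91% between interneurons and excitatory neurons (1 of 31 list members, *Plagl1*), 2.59% between interneurons and radial glia (1 of 29, *Zim1*), 2.54% between interneurons and intermediate progenitors (1 of 29, *Zim1*) and 2.03% between excitatory neurons and radial glia (2 of 30, *Plagl1* and *Sgce*). For *Plagl1*, both Dnmt1 KO libraries were below both Controls in interneurons (-0.46 on the log2 scale) and above them in excitatory neurons (0.22), a gap of -0.68. The test of that gap gave -0.68 ± 0.17 (SE; edgeR unadjusted p = 0.00596, adjusted p = 1), and it was -0.67 with an adjusted p of 0.0147 without the filter on low counts. With nuclei filtered on mapped reads it was -0.22 with an adjusted p of 1, and the interneuron difference turned to 0.073, so that the opposite order was lost. Over all alternatives the adjusted p of the gap ran from 0.0147 to 1. In radial glia *Plagl1* was again below the Controls in Dnmt1 KO (399 and 267 CPM against 439 and 464 CPM), a gap of 0.61 between excitatory neurons and radial glia that was not tested.

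*Zim1* was lower in both Dnmt1 KO libraries of interneurons and higher in both of radial glia, a gap of -1.54, and higher in both of intermediate progenitors, a gap of -0.85. The interneuron difference turned to 0.057 with nuclei filtered on mapped reads, the intermediate progenitor difference turned to -0.20 with stricter gates, and the radial glia difference was 0.15 with classes set at a common depth. *Sgce* was higher in Dnmt1 KO excitatory neurons (115 and 114 CPM against 108 and 104 CPM) and lower in Dnmt1 KO radial glia (103 and 120.5 CPM against 125 and 135 CPM), a gap of 0.31. The gaps between classes for *Zim1* and *Sgce* were not tested.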

How the results depend on the processing

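Of 654 values of named genes under the alternatives, 640 kept their direction and their side of the threshold, 6 passed it only under the alternative, 3 lost it and 5 changed direction. The direction changed for *Plagl1* (0.073) and *Zim1* (0.057) in interneurons and *Mest* in the interaction (0.051) with the filter on mapped reads, for *Mirg* in *Sst*+/*Gad2*+ nuclei (-0.12) with classes set at a common depth, and for *Zim1* in intermediate progenitors (-0.20) with stricter gates. The cause was not tested.

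The number of imprinted genes called for genotype was 0 by edgeR as described. Without the filter on low counts it was 2 in interneurons (*Igf2* and *Airn*), 3 in excitatory neurons (*Ndn*, *Igf2* and *Nnat*), 3 in intermediate progenitors (*Meg3*, *Igf2* and *Kcnq1ot1*) and 2 in the interaction (*Plagl1* and *Airn*), and over all genes the calls rose from 0 to 155, 540, 462 and 167, to 53 in *Sst*+/*Gad2*+ nuclei and to 70 over all nuclei. DESeq2 called 1 imprinted gene over all nuclei (*Grb10*), and over all genes it called 2 in interneurons, 55 in excitatory neurons, 56 in radial glia, 53 in intermediate progenitors and 205 over all nuclei. With each library left out in turn the number ran from 0 to 1 in excitatory neurons (*Igf2*, without Dnmt1 KO 1), from 0 to 2 in intermediate progenitors (*Igf2* without Dnmt1 KO 1, *Snhg14* and *Kcnq1ot1* without Dnmt1 KO 2) and from 0 to 1 over all nuclei (*Igf2*, without Dnmt1 KO 1), with the lone library assumed to vary like the other genotype. The calls over all genes then ran from 0 to 3 in interneurons, 0 to 59 in *Sst*+/*Gad2*+ nuclei, 0 to 85 in excitatory neurons, 0 to 17 in radial glia, 0 to 329 in intermediate progenitors, 0 to 188 over all nuclei and 0 to 10 in the interaction. Batch as a covariate fits Control 2, the only library of batch 2, by a term of its own, so it is no check separate from leaving Control 2 out. The median log2 difference of the list was 0.120 under either setting in excitatory neurons. In interneurons it was -0.063 with the batch term and -0.053 without Control 2. In the class comparisons the number of imprinted genes called stayed within 1.5 times under every alternative run, while the calls over all genes fell from 5320 to 3476 for interneurons and from 8445 to 5179 for vascular nuclei in the Control libraries alone. Between interneurons and excitatory neurons, *Grb10* lost its call with classes set at a common depth (0.092), and *Peg10* without Control 1 (0.73) and in the Control libraries alone (0.99).

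Over all genes, libraries with the same replicate number did not deviate together. The correlation of their deviations from the genotype means ran from -0.0413 to 0.0581 over the 6 populations. By the labels these libraries also share a sex, and a correlation over all genes cannot show an effect confined to few of them. With the replicate number as a block, 0 imprinted genes and 0 genes in all were called in each of the 6 genotype comparisons. In *Sst*+/*Gad2*+ nuclei, of which a library held 16 to 136, 24 imprinted genes had enough transcripts to test.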
